A study of Mus musculus with 4 samples.

Results

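The insulin-like growth factor (IGF) genes followed here were the ligands Igf1 and Igf2, the receptors Igf1r and Igf2r, and the binding proteins Igfbp2, Igfbp3, Igfbp4, Igfbp5, Igfbp6 and Igfbp7. They were represented by every probe set that the array annotation assigned to exactly 1 of these 10 genes, which gave 28 of the 45101 probe sets on the array. One further probe set, assigned to Igf2r together with Airn, was left out by this rule. RNA was measured in C2C12 cells, an immortalised mouse myoblast line that can be induced to form muscle fibres. The knockdown cells were stably transduced with a pLKO.1 lentiviral vector expressing an shRNA against Sfmbt1 (shSFMBT1), a gene for a chromatin protein with MBT repeats. The control cells carried pLKO.1 with a control shRNA, which 1 label calls scramble and another shLuc. Both groups were kept in medium with 20% inactivated fetal bovine serum and 2 ug/ml of puromycin, so all cells compared were puromycin-selected and growing in serum. Each group had 2 cultures, described as independently grown, with 1 array per culture. The labels do not say whether they came from separate transductions, and p-values then measure the spread between these cultures only.

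IGF1 and IGF2 are secreted peptides that act through the IGF1 receptor, a tyrosine kinase that signals through phosphoinositide 3-kinase and AKT. The IGF2 receptor, which is also the cation-independent mannose 6-phosphate receptor, takes up IGF2 for degradation. Binding proteins hold IGFs in the extracellular space and can either limit or prolong their access to the receptor. In cultured myoblasts IGFs promote both proliferation and differentiation, IGF2 acts as an autocrine ligand during differentiation, and IGFBP5 is a binding protein that differentiating myoblasts secrete.

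The 4 arrays had median signals of 92.8 and 101.1 in the knockdown and 97.8 and 102.7 in the control. Signals are linear MAS5 intensities. The background limit of each array, set at the 95th percentile of its 27 control probe sets for Bacillus genes, was 69.3 and 42.9 in the knockdown and 49.1 and 53.2 in the control, and knockdown array 1 had the lowest share of probe sets above it, at 56.2% against 64.3% to 67.6% on the others. All 5 Sfmbt1 probe sets were lower in the knockdown without overlap between the groups, as were 24% of all probe sets tested. The untested one, 1443853_x_at, was in the background range on all 4 arrays. The 4 tested ones stood at 17.4% to 69.2% of the control. Of these 4, 1422894_at passed the test (adjusted p = 0.0219). Its signals were 74.6 and 16 in the knockdown against 241.7 and 277.9 in the control, and the lower knockdown signal lay in the background range. All 9 myoblast markers were above background on all 4 arrays, with summed signals of 14976 and 15871 in the knockdown and 15533 and 17253 in the control. Of the 9, 0 passed, where 2.39% of all probe sets tested did, and their median difference was -0.23 log2 units. Myod1, Myf5, Pax7, Cdh15, Itga7 and Ncam1 were lower without overlap. Des, the brightest of the list, and Vcam1 were higher without overlap, and Pax3 overlapped. Over all probe sets tested, 24% were lower and 21.6% higher without overlap. Of the 10 markers of differentiating muscle, a list written with the rise of some of them known, 9 rose and 0 fell, and their summed signal was 8311 and 8924 in the knockdown against 2125 and 1653 in the control. Markers of other cell types were above background on all arrays for 4 of 7 fibroblast genes (Pdgfra, Thy1, Tcf21, Dcn), 2 of 5 adipocyte genes (Pparg, Cebpa), 1 of 7 endothelial genes (Kdr) and 4 of 6 macrophage genes (Adgre1, Csf1r, Cd68, Lyz2). Of these 25 genes 13 were bright enough to test, and 0 passed, where 2.39% of all probe sets tested did. Of the 13, Cebpa, Kdr and Cd68 were lower and Fabp4 and Cdh5 higher without overlap. Summed list by list, the signals of the 25 genes lay between 343 and 892 in the knockdown and between 462 and 1015 in the control. No marker was at 0. In the background range on every array were Adipoq and Lep of the adipocyte list, Pecam1, Tie1 and Vwf of the endothelial list and Ptprc and Itgam of the macrophage list, but no gene of the fibroblast list.

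Igfbp5 fell in the Sfmbt1 knockdown in both of its probe sets, and it was the only 1 of the 10 genes with a probe set that passed. No member rose. The ligand Igf2, in 1 of its 2 probe sets, and Igfbp7, in both tested probe sets, had higher signals in the knockdown without overlap between the groups, and none of these passed. Igfbp6 and both probe sets of Igfbp3 had lower signals without overlap and did not pass either. Of the 28 probe sets 23 were bright enough to test, covering all 10 genes, and 2 were lower and 0 higher. Over all 22893 probe sets tested, 1.43% were lower, 0.961% higher and 2.39% changed in either direction. The members' 2 calls stood on 1 gene, Igfbp5. With each gene represented by its brightest probe set, Igfbp5 was the only 1 of the 10 called (adjusted p = 0.0217). For Igfbp5 that was 1452114_s_at, 1 of the 2 probe sets already called on the same arrays. Of all 12866 genes, 1.61% were lower and 3.05% changed in either direction. The median difference of the 23 member probe sets was -0.14 log2 units, against -0.01 over all probe sets tested. Of the 23, 14 were negative and 9 positive (39.1%), where 49.3% of all probe sets tested were positive. Several of the 23 belong to the same gene. Of the 23 tested member probe sets 9 were lower and 4 higher without overlap between the groups, where 24% and 21.6% of all probe sets tested were. In these bulk cultures fewer cells of a type and less RNA per cell cannot be told apart.

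**Figure D1:**
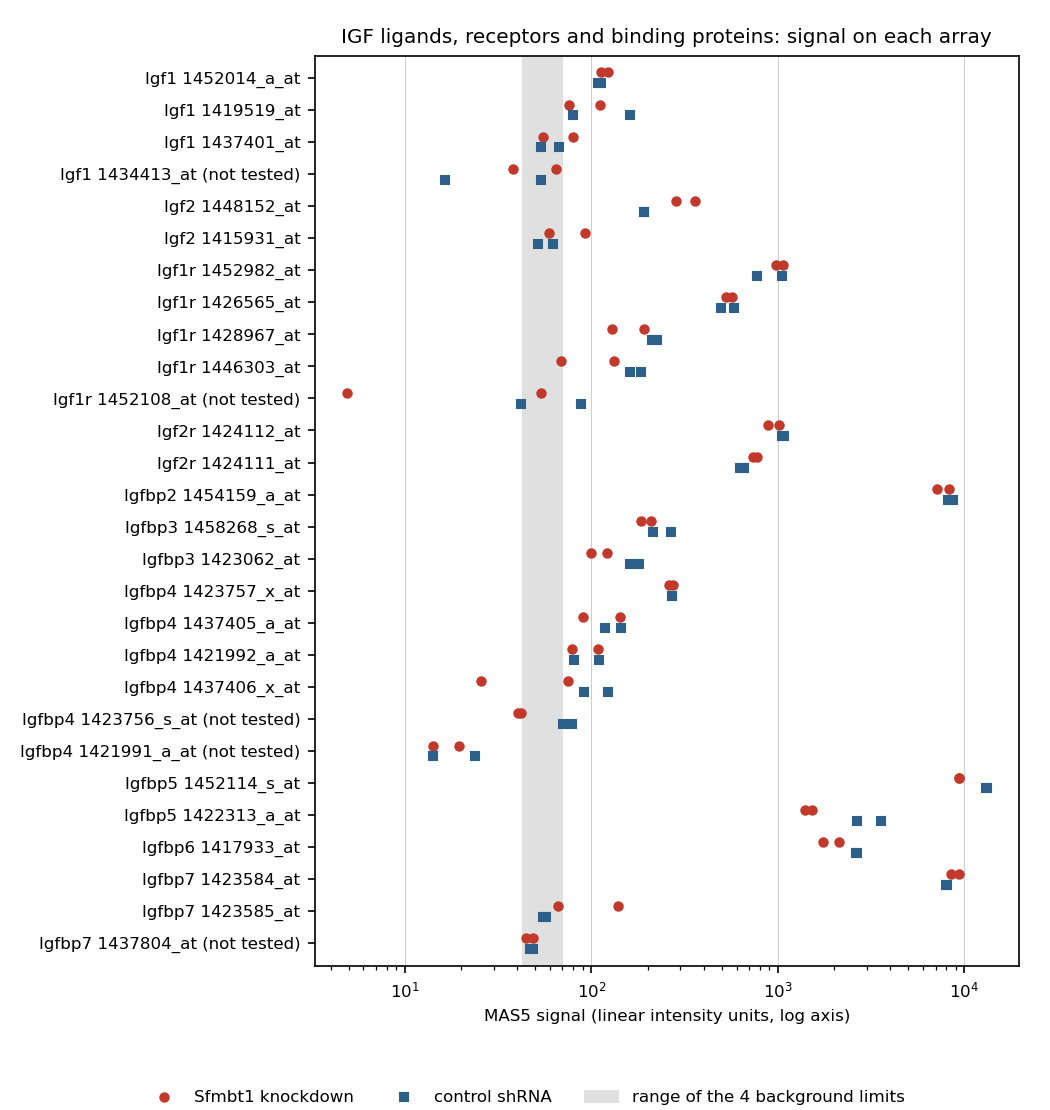
MAS5 signal of the 28 probe sets of the 10 IGF genes on each array (horizontal log axis, linear intensity units), with circles for the 2 Sfmbt1 knockdown arrays and squares for the 2 control arrays. The grey band spans the background limits of the 4 arrays, 42.9 to 69.3. Both Igfbp5 probe sets have their knockdown points left of their control points, while the points of Igf1, Igfbp2 and most Igfbp4 probe sets overlap.

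Igfbp5 is shown with its promoter because it was the gene that changed, and its neighbour Igfbp2 because RefSeq places these 2 binding protein genes next to each other on chromosome 1 among protein-coding genes. The sequences are the 250 bases before the annotated start, from RefSeq (GRCm38.p6), for Igfbp5 on the minus strand at chr1:72874866-72875115 and for the first of 2 annotated starts of Igfbp2 on the plus strand at chr1:72824230-72824479. Capitals mark matches to CANNTG, the E-box that basic helix-loop-helix factors such as the myogenic factors bind. The motif reads the same on both strands.
Igfbp5: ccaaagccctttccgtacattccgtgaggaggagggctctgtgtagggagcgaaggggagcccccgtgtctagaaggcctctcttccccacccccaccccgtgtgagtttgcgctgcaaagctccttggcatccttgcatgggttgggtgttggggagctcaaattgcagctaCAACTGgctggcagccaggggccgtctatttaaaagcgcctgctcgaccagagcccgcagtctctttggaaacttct
Igfbp2: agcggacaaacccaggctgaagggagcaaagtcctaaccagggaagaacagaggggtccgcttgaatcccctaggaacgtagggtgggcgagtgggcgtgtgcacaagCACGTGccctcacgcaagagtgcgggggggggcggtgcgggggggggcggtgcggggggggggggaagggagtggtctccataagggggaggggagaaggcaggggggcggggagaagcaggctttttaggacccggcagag
Each window held 1 E-box, which ended 71 bases before the start in Igfbp5 and 136 bases before it in Igfbp2. All 10 members had at least 1 promoter window, 14 in all. CANNTG was found in 9 of the 14 (64.3%), against 66.2% of 32841 such windows over all genes. The letters CAGCTG, a form of CANNTG, were in 1 of the 14 (7.14%, in Igf1), against 13% of all windows. TATAAA, searched on both strands, was in 2 of the 14 (14.3%, in Igfbp4 and Igfbp6), against 12.4%. These matches describe the letters in the windows, and binding was not measured.

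Igfbp5, which encodes the secreted binding protein that is prominent in muscle cells, had signals of 1527 and 1396 in the knockdown against 3558 and 2645 in the control in probe set 1422313_a_at. Both knockdown arrays were below both control arrays, and the mean stood at 1461 ± 92.6 in the knockdown and 3102 ± 646 in the control (SD, n = 2 each), 47.1% of the control. The log2 difference was -1.06 (SE 0.15, 95% interval -1.39 to -0.73, adjusted p = 0.0045). In probe set 1452114_s_at the Igfbp5 signals were 9299 and 9316 in the knockdown against 13126 and 12992 in the control. The groups again did not overlap, and the drop was smaller than in the other probe set, to 71.3% of the control. There the log2 difference was -0.49 (SE 0.11, 95% interval -0.72 to -0.25, adjusted p = 0.0401). The suffix _s_at marks probe sets that may match transcripts of more than 1 gene on the array's design. The size in 1422313_a_at rested in part on the control arrays, with -0.85 without control replicate 1 and -1.28 without control replicate 2, and the call held both times. The call in 1452114_s_at was lost without control replicate 1 (adjusted p = 0.2135) and without control replicate 2 (0.154) at almost the same difference, -0.48 and -0.50. With dim probe sets kept in the test neither passed (adjusted p = 0.0691 and 0.205). Neither passed when the variance was not modelled on signal level (0.236 and 0.319), a setting in which limma called 0 of all probe sets and 2913 had an unadjusted p under 0.05. The summed signal of the 10 differentiating muscle markers, given above, also differed between the groups, and was higher in the knockdown where Igfbp5 was lower. The part of these markers in the Igfbp5 result, and in the Igf2 values below, was not tested.

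**Figure D2:**
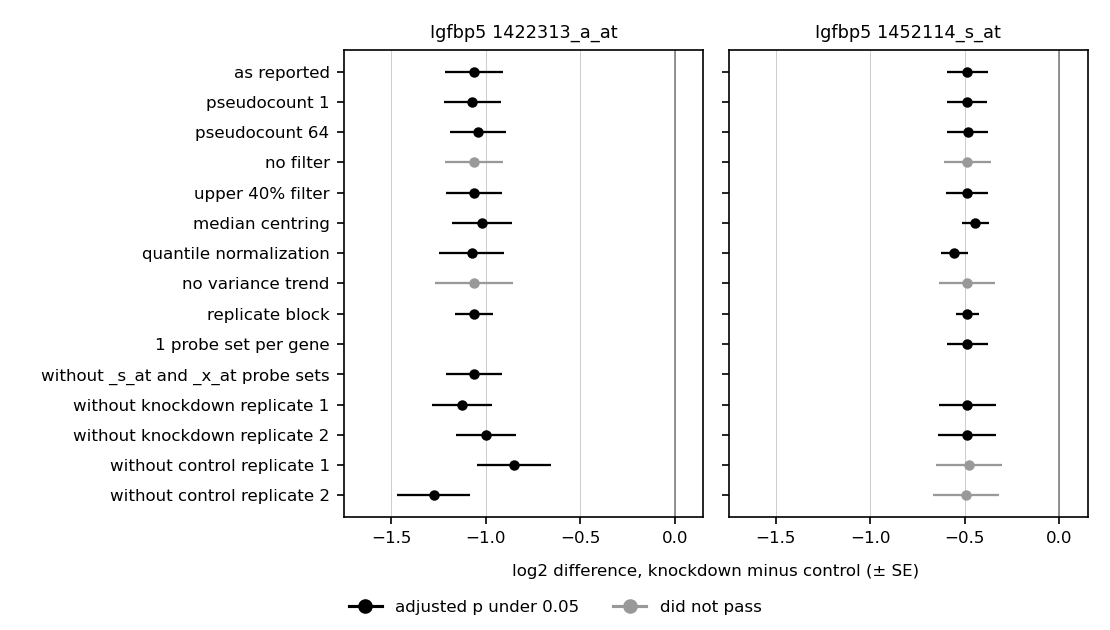
Log2 difference of the 2 Igfbp5 probe sets, knockdown minus control, with its SE (horizontal axis), as reported and under each alternative setting (vertical axis). Black points passed at an adjusted p under 0.05 and grey points did not. All differences lie left of 0, between -1.28 and -0.85 for 1422313_a_at and between -0.56 and -0.45 for 1452114_s_at, and a setting that drops a probe set shows no point for it.

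Of the ligands, Igf2 had 1 probe set whose groups did not overlap, and Igf1 had none. Igf2, the imprinted fetal ligand that myoblasts make as they differentiate, had signals of 360.2 and 284.7 in the knockdown against 190.8 and 192.6 in the control in probe set 1448152_at. Both knockdown arrays were above both control arrays, and the ratio of the means was 1.68. The log2 difference of 0.70 (SE 0.21, 95% interval 0.24 to 1.15) had an unadjusted p of 0.0065 and did not pass over all probe sets (adjusted p = 0.123). The difference was 0.86 without knockdown replicate 2, the lower of that group, and 0.53 without knockdown replicate 1. The second Igf2 probe set, 1415931_at, stood close to background, at 92.9 and 59.3 in the knockdown against 51.7 and 62.6 in the control, and its groups overlapped (log2 0.31, 95% interval -0.66 to 1.28).

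Igf1, the ligand that also circulates under the control of growth hormone, was dim in all 4 of its probe sets. In 1452014_a_at the signals were 123.0 and 112.0 in the knockdown against 108.2 and 113.1 in the control (log2 0.08, 95% interval -0.58 to 0.73, adjusted p = 0.942). The groups overlapped there and in the other 3 probe sets. Probe set 1419519_at had 75.7 and 111.5 in the knockdown against 79.5 and 162.1 in the control, and its difference of -0.27 turned to 0.18 without control replicate 2. In 1437401_at the difference was 0.12, and it turned to -0.10 without knockdown replicate 1 and to -0.01 without control replicate 1. The last, 1434413_at, was below the filter, with 38.1 and 64.8 in the knockdown against 16.4 and 53.8 in the control, and 1 array of each group was in the background range. The 95% interval of the brightest probe set, 1452014_a_at, was the narrowest of the 3 tested, and all 3 included 0.

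Igf1r, the signalling receptor, gave no common direction over its probe sets. The 2 brightest were close between the groups. Probe set 1452982_at read 1064 and 979 in the knockdown against 771 and 1052 in the control (log2 0.18, 95% interval -0.19 to 0.54, adjusted p = 0.669). In 1426565_at the signals were 528.3 and 564.0 in the knockdown against 493.0 and 582.2 in the control (log2 0.03, 95% interval -0.33 to 0.38). Both overlapped between the groups, and both turned negative without control replicate 1, at -0.04 and -0.09. The dimmer tested pair were lower in the knockdown without overlap. Probe set 1428967_at had 129.5 and 192.2 in the knockdown against 224.3 and 211.3 in the control (log2 -0.43, adjusted p = 0.460), and 1446303_at had 131.7 and 69.1 in the knockdown against 183.9 and 160.8 in the control (log2 -0.75, adjusted p = 0.299). In 1446303_at the difference was -1.14 without knockdown replicate 1 and -0.35 without knockdown replicate 2. In 1428967_at the difference lay between -0.68 and -0.17 with 1 array left out. In the untested 1452108_at, 1 array of each group was in the background range.

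Igf2r, the receptor that clears IGF2, had 2 bright probe sets that pointed in opposite directions. In 1424112_at the signals were 1014 and 884 in the knockdown against 1053 and 1084 in the control, lower without overlap (log2 -0.17, 95% interval -0.48 to 0.14, adjusted p = 0.616). In 1424111_at they were 769 and 734 in the knockdown against 624 and 662 in the control, higher without overlap (log2 0.22, 95% interval -0.10 to 0.54, adjusted p = 0.522). Neither probe set passed, and both kept their direction in every alternative that tested them.

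Among the other binding proteins, Igfbp6, which prefers IGF2 over IGF1, had the lowest p after Igfbp5. Its signals in 1417933_at were 1744 and 2135 in the knockdown against 2618 and 2663 in the control, lower without overlap and at 73.5% of the control mean. The log2 difference of -0.45 (SE 0.13, 95% interval -0.74 to -0.16) had an unadjusted p of 0.0059 and did not pass (adjusted p = 0.117). It passed after quantile normalization (adjusted p = 0.0363). The difference was -0.59 without knockdown replicate 2 and -0.30 without knockdown replicate 1.

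Igfbp3, the main carrier of IGFs in blood, was lower in the knockdown in both probe sets without overlap, and neither passed. In 1423062_at the signals were 120.8 and 99.7 in the knockdown against 180.2 and 161.1 in the control (log2 -0.57, 95% interval -1.17 to 0.03, adjusted p = 0.354). In 1458268_s_at they were 209.4 and 183.8 in the knockdown against 266.1 and 214.2 in the control (log2 -0.26, adjusted p = 0.627).

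Igfbp4, an inhibitory binding protein that the protease PAPP-A cleaves, was represented by 6 probe sets, of which 4 were tested and none passed. In the brightest, 1423757_x_at, the groups were nearly equal, with 260.1 and 275.2 in the knockdown against 271.7 and 270.8 in the control (log2 -0.02, 95% interval -0.44 to 0.40), and median centring gave 0.02. Probe sets 1437405_a_at and 1421992_a_at overlapped between the groups, with differences of -0.18 and -0.03. Probe set 1437406_x_at had 75.0 and 25.5 in the knockdown against 91.2 and 122.1 in the control, lower without overlap (log2 -0.99, adjusted p = 0.352), and the 25.5, on knockdown array 2, was in the background range. Without knockdown replicate 2 the difference was -0.42 (adjusted p = 0.754), and without knockdown replicate 1 it was -1.55 (adjusted p = 0.0864). The untested 1423756_s_at had 42.2 and 40.5 in the knockdown, both in the background range, against 78.3 and 70.2 in the control. The background limit of knockdown array 1, 69.3, lay just under the lower control signal, so no size is given for this difference. The remaining one, 1421991_a_at, was in the background range on all 4 arrays.

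Igfbp2 and Igfbp7 had bright probe sets, and neither gene passed. Igfbp2, the chromosomal neighbour of Igfbp5, had 7134 and 8260 in the knockdown against 8189 and 8703 in the control in its single probe set, 1454159_a_at. The groups overlapped, and the log2 difference was -0.14 (SE 0.12, 95% interval -0.40 to 0.12, adjusted p = 0.638). Igfbp7, a matrix-associated relative that binds IGFs with low affinity, had 8460 and 9294 in the knockdown against 7914 and 8067 in the control in 1423584_at. That was higher without overlap, by 0.15 log2 units (95% interval -0.10 to 0.40, adjusted p = 0.577), and did not pass. In the dim 1423585_at the Igfbp7 signals were 138.9 and 65.9 in the knockdown against 56.9 and 54.8 in the control (log2 0.65, adjusted p = 0.527). That difference was 0.19 without knockdown replicate 1 and 1.11 without knockdown replicate 2. Knockdown signals of 44.8 and 48.6 and control signals of 47.1 and 48.5 in 1437804_at were too dim to test.

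**Figure D3:**
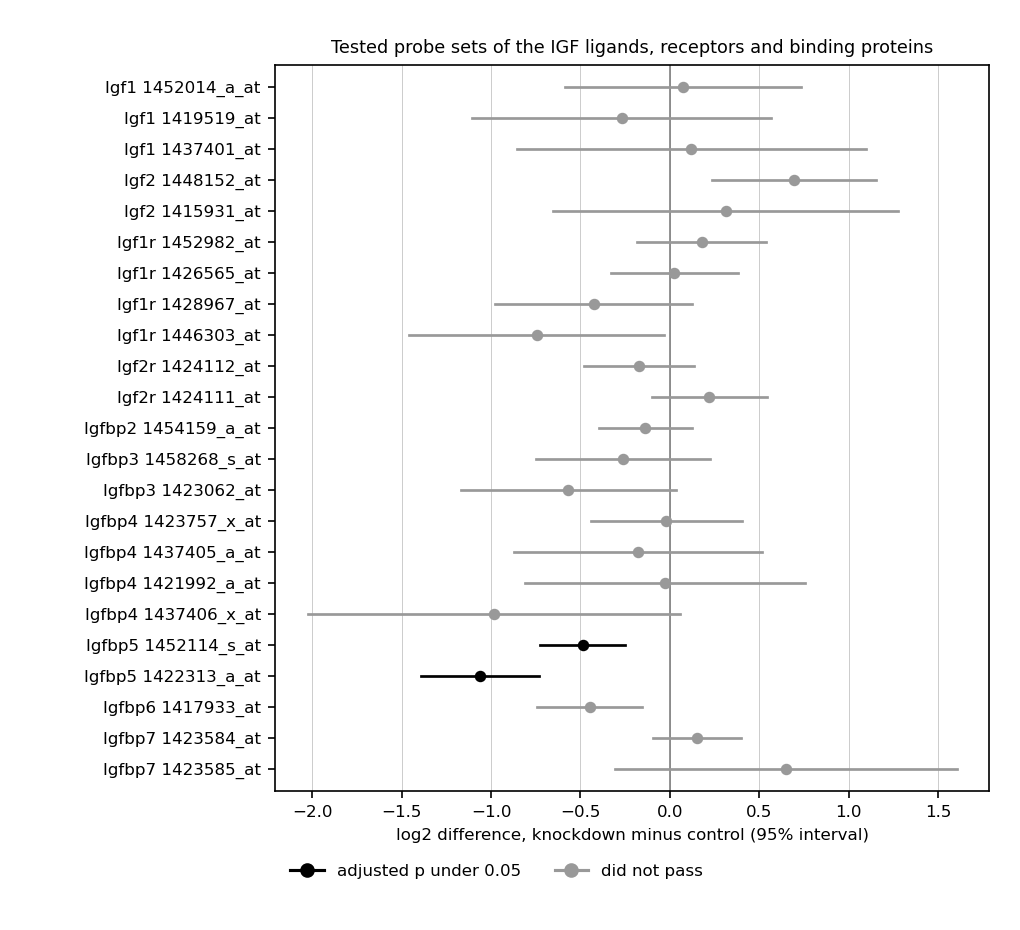
Log2 difference, knockdown minus control, with its 95% interval (horizontal axis) for the 23 tested probe sets of the 10 IGF genes (vertical axis), in black where the adjusted p was under 0.05 and in grey elsewhere. The 2 black rows are Igfbp5, at -0.49 and -1.06. The intervals of Igf2 1448152_at, Igfbp6 and Igf1r 1446303_at also leave out 0, without passing after adjustment.

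The other genes of the IGF axis and of signalling from the receptor were counted in the same test. Of 24 tested probe sets for other extracellular and RNA-level parts of the axis, covering 12 genes, 0 rose and 0 fell. Over all probe sets tested 2.39% changed in either direction, so 0 of 24 is near that share. A positive difference was found in 15 of the 24, where 49.3% of all probe sets tested had one. With limma 4 of the 24 had an unadjusted p under 0.05, as did 15.5% of all probe sets tested. These 4 were split evenly between the directions. The growth hormone receptor gene Ghr had the smallest p, with 356.3 and 412.4 in the knockdown against 639.8 and 521.3 in the control in 1451501_a_at (log2 -0.57, SE 0.18, adjusted p = 0.130). The differences were smaller in Ghr 1451871_a_at and 1417962_s_at, at -0.33 and -0.27. Stc1, which encodes a stanniocalcin, a family that inhibits the IGFBP protease PAPP-A, came next. In 1450448_at it had 109.3 and 78.3 in the knockdown against 197.8 and 168.2 in the control (log2 -0.87, adjusted p = 0.168). The untested Stc1 1421984_at, near background, had 16.4 and 48.3 in the knockdown against 11.1 and 11.1 in the control. Ghr 1451501_a_at and Stc1 1450448_at were lower without overlap, and neither passed. The other two, named after their values were seen, were higher without overlap and did not pass, Lrp1 1448655_at by 0.32 log2 units (adjusted p = 0.217) and Ctsd 1448118_a_at by 0.29 (adjusted p = 0.239).

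Of 90 tested probe sets for receptor signalling, covering 37 genes, 2 rose and 3 fell, which is 5.56% against 2.39% of all probe sets tested. These calls stood on 1 gene that rose and 2 that fell, with 2 called probe sets each for Gsk3b and Deptor. The share therefore counts some genes more than once. The median difference of this list was -0.06. Gsk3b, which encodes a kinase that AKT inhibits, had 190.2 and 188.2 in the knockdown against 716.9 and 749.5 in the control in 1451020_at. It fell by 1.87 log2 units there (SE 0.17, adjusted p = 6.42e-04) and fell by 0.85 in 1437001_at (SE 0.15, adjusted p = 0.0137). The other 4 tested Gsk3b probe sets were also negative, with -0.32 the smallest in size, and did not pass. Pik3ca, which encodes a catalytic subunit of phosphoinositide 3-kinase, had 330.3 and 266.9 in the knockdown against 605.6 and 545.3 in the control in 1460326_at. It fell by 0.92 (SE 0.18, adjusted p = 0.0247), and its other 5 tested probe sets were negative without passing. That call was lost without control replicate 1 (log2 -0.84, adjusted p = 0.106). Deptor, which encodes an inhibitor of the mTOR kinase, had 1086 and 1046 in the knockdown against 668 and 656 in the control in 1428622_at. It rose by 0.67 (SE 0.14, adjusted p = 0.0316) there and by 0.67 (SE 0.15, adjusted p = 0.0417) in 1451348_at, and the other 3 tested probe sets were positive without passing. Both Deptor calls were lost without control replicate 1 (adjusted p = 0.111 and 0.177) and without control replicate 2 (0.101 and 0.102).

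**Figure D4:**
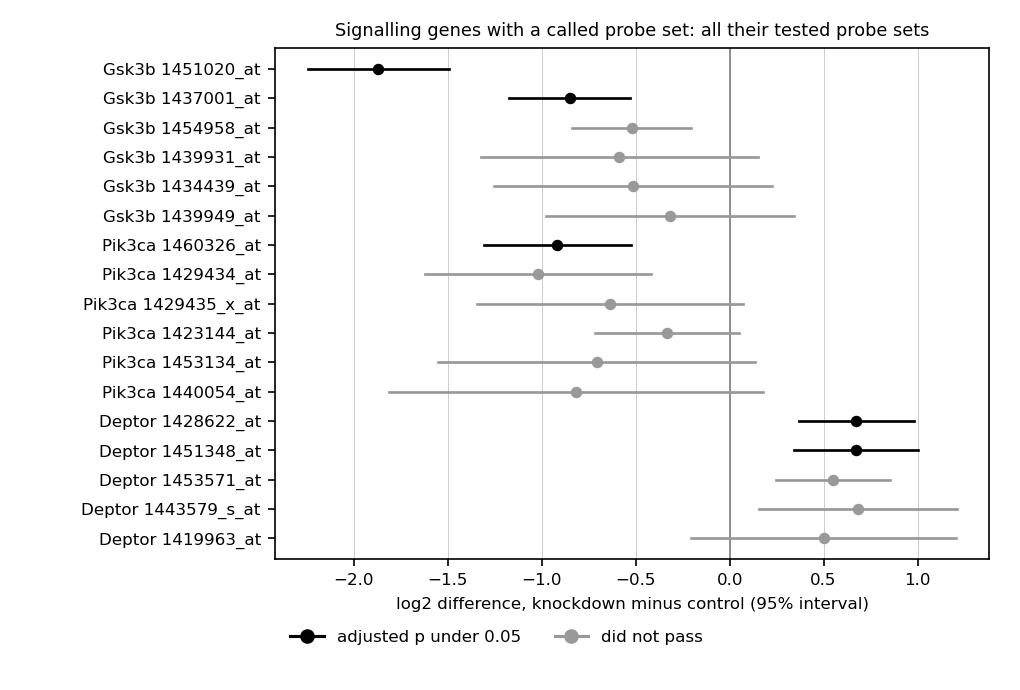
Log2 difference, knockdown minus control, with its 95% interval (horizontal axis) for all tested probe sets of Gsk3b, Pik3ca and Deptor (vertical axis), in black where the adjusted p was under 0.05. All 6 Gsk3b and all 6 Pik3ca probe sets lie left of 0 and all 5 Deptor probe sets lie right of it, from -1.87 for Gsk3b 1451020_at to 0.68 for Deptor 1443579_s_at.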

How the data were processed

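RNA of 2 Sfmbt1 knockdown and 2 control cultures was measured on 1 Affymetrix mouse array each. The deposited values are linear intensity values per probe set, which the authors computed with MAS5 in GCOS according to the submitters' processing notes. Any scaling between arrays is not given there. MAS5 gives noisy values for dim probe sets. Of the 45101 probe sets, 34945 had 1 gene in the array annotation, and 34741 of these matched RefSeq (GRCm38.p6) by gene identifier, with 0 symbols changed.

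Signals were used as log2(signal + 16), so fold changes of dim genes are understated. Probe sets assigned to 1 gene and in the upper 60% of mean log2 signal (signal 57.3 or more) were tested with limma 3.58.1 in R 4.3.3 (lmFit, and eBayes with a trend), knockdown minus control, with Benjamini-Hochberg adjustment over all 22893 and a threshold of 0.05. The spread had 2 residual and 9.60 prior degrees of freedom. A two-sided exact permutation test of 2 against 2 cannot go below p = 0.333. The number of arrays limits precision. The limma fit was also run on simulated data with independent noise and 200 changed probe sets. Those data held no shifts of whole arrays, so they do not show how the fit behaves under such shifts.

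The members and gene lists were chosen with earlier results of these data known. All members are described; of each pathway list the genes with a called probe set are named, or else the 2 with the smallest p. Of 60 pathway symbols, 5 without a probe set of their own were not analysed here. Alternatives were the pseudocount, filter, scaling, variance trend, replicate block, 1 probe set per gene, suffix classes and each array left out.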

Additional observations from a re-analysis of the deposited data

How the results depend on the processing

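Both Igfbp5 probe sets and the 5 called probe sets of Gsk3b, Pik3ca and Deptor kept their direction in all alternatives that tested them. Of 295 values of member probe sets over the 14 alternatives, 270 kept direction and side of the threshold, 6 lost a call, all in Igfbp5, 5 gained one, and 14 changed sign, none of them called in any setting. The number of member probe sets called was 2 as reported, 0 without the filter and without the variance trend, 1 with 1 probe set per gene (Igfbp5, adjusted p = 0.0217) and without the _s_at and _x_at probe sets, which removes 1 of the 2, and 1 to 4 with an array left out. Without knockdown replicate 2 the calls were both Igfbp5 probe sets, Igfbp6 and Igf2 1448152_at. Over all probe sets 548 were called (220 higher, 328 lower), against 63 without the filter, 950 in the upper 40%, 0 without the trend and 297 to 1429 with an array left out: 1429 without knockdown replicate 1, 1359 without knockdown replicate 2, 297 without control replicate 1. Median centring gave 401 higher and 333 lower, so the higher share of calls was 54.6% instead of 40.1%. Of the pathway probe sets 5 were called, 1 without the filter, 8 in the upper 40%, 0 without the trend, 3 with 1 probe set per gene and 2 to 12 with an array left out. Of the Sfmbt1 probe sets 1 was called, 0 without the filter, after median centring, after quantile normalization, without the trend and with 1 probe set per gene, and 1 to 3 with an array left out. The causes of these shifts were not tested.

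Differences between replicates 1 and 2 were nearly uncorrelated between the groups (r = 0.0095 across 22893 probe sets, which are not independent). The labels do not pair the cultures. A shift common to all probe sets of an array does not enter this r. Replicate 1 had the lower median signal in the knockdown (92.8 against 101.1) and in the control (97.8 against 102.7). With the replicate number as a block 857 probe sets were called, 3 of the members (Igfbp6 joined, adjusted p = 0.0446), 7 of the pathway and 2 of Sfmbt1. The signs that turned were these. Median centring gave 0.0235 for Igfbp4 1423757_x_at and 0.0164 for 1421992_a_at, and quantile normalization 0.0168 and 0.0251. With an array left out, Igf1 1419519_at ranged from -0.72 to 0.18, Igf1 1437401_at from -0.10 to 0.34, Igf1r 1452982_at from -0.0428 to 0.397, Igf1r 1426565_at from -0.0904 to 0.143, Igfbp4 1423757_x_at from -0.0571 to 0.0197, 1437405_a_at from -0.47 to 0.11 and 1421992_a_at from -0.23 to 0.17. Where a group was left with 1 array, that array was assumed to vary like the other group. Dim probe sets limit Igf1, Igf2 1415931_at and most of Igfbp4.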
